A study of Mus musculus with 9 samples.

Results

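The brainstem libraries of a mouse sleep experiment held 10963 of the 29571 cells in the deposited count table, and were taken as the libraries with the 7th, 8th and 9th distinct codes among its 9 libraries in column order. Single-cell RNA sequencing counts, for each captured cell, the unique molecular identifiers (UMIs) of every gene, and one library was made for each treatment from the pooled brainstems of 3 mice. The mice were male C57BL/6 by the labels (C57BL/6J in the study's methods), 9 to 11 weeks old, and all tissue was taken at zeitgeber time 12, the end of the light phase in which mice mostly sleep. The normal sleep group (NS) slept undisturbed, the sleep deprived group (SD) was kept awake for 12 h by a sweeping bar, and the recovery sleep group (RS) was deprived for the same time and then left to sleep, for 12 h in the labels' description of the group and for 24 h in their protocol text and in the study's methods. Each treatment was 1 library, so no comparison below has a replicate check. Every interval covers counting error at 95% confidence only, and no p-value is given.

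The labels do not name the library codes, and the assignment was therefore tested first. A supplementary list of cell barcodes from normal sleep brainstem was compared with the columns. All 1999 of them were found in library 7, whereas 5 to 13 of them were found in each of the other libraries. The study also tabulates the share of cells of each type with a UMI of a gene in the 3 brainstem groups. These shares were recomputed for each of the 9 libraries with at least 30 cells of the type, using cells named from a clustering of all 9 libraries, and the library with the smallest mean difference was the one given by the order in 26 of 26 comparisons, of which 7 of 7 were NS, 13 of 13 SD and 6 of 6 RS. By the correlation of the shares it was so in 25 of 26, the exception being the NS column of the hemoglobin-rich cells. Without the hemoglobin-rich cells, whose shares barely separated the libraries, this held in 22 of 22, where the best library differed by 0.392 to 1.66 percentage points for SD and the next best by at least 2.93, and by 0.782 to 4.52 points for RS with the next best at 5.79 or more. Library 8 is therefore called SD and library 9 RS. The tabulated shares were made by the authors from these same counts, so they bear on the assignment and on nothing else.

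The brainstem joins the brain to the spinal cord and holds cell groups that start and maintain wake and sleep states. The tissue was dissociated with papain and myelin was removed with beads, and most of the cells named below line, supply or support the tissue. Astrocytes take up transmitters, clear glutamate through glutamine synthetase and hold glycogen. Ependymal cells carry the cilia that move cerebrospinal fluid over the ventricle walls. Metallothioneins, which return below in several types, are small cysteine-rich proteins that bind zinc and copper, and their genes respond to metals, glucocorticoids and oxidative stress.

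The start regions of 3 genes that differed together over many types are shown first. Mt1 and Mt2 are neighbours on chromosome 8 and Per3, a clock gene, lies on chromosome 4. Each sequence runs from 250 bases before to 50 bases after the RefSeq start of the gene on the GRCm38.p6 build, 5′ to 3′ on the gene's own strand. Capitals mark TGCNCNC in Mt1 and Mt2, where N is any base, and the D-box TTATGTAA in Per3, the letters that the transcription factor DBP binds. TGCNCNC is a looser pattern than the metal response element core TGCRCNC, where R is A or G. Both strands were searched, and overlapping matches of a motif could share bases.
Mt1, chr8:94178839-94179138, plus strand: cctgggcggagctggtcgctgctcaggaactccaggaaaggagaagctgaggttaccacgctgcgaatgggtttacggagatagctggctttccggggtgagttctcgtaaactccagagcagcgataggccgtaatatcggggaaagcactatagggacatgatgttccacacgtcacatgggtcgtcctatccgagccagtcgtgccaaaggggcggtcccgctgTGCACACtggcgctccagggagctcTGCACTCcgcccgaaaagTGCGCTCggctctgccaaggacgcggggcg
Mt2, chr8:94172368-94172667, plus strand: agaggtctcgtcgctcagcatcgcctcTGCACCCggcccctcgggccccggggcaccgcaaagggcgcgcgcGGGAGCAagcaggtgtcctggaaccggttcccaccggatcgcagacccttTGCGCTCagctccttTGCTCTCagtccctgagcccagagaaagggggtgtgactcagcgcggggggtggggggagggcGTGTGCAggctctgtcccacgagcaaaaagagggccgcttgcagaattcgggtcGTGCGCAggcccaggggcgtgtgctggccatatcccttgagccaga
Per3, chr4:151044616-151044915, minus strand: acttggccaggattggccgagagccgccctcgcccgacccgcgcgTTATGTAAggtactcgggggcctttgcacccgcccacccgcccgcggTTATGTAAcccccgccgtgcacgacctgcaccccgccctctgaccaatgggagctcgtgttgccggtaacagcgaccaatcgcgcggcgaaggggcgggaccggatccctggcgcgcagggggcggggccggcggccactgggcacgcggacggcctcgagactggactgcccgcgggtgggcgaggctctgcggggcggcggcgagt
The Mt1 window held 3 matches of TGCNCNC and the Mt2 window 6, and the window of Mt3, at chr8:94152357-94152656, held 3. TGCTCTC and GGGAGCA in Mt2, and GGGAGCA and GAGAGCA in Mt3, fit the looser pattern only. Of 32851 promoter windows of the same length, 51.0% held at least 1 match, 7.1% at least 3 and 0.225% at least 6. The D-box was found 2 times in the Per3 window, at 205 and 158 bases before the start, while 0.938% of windows held at least 1 and 0.0213% at least 2. A match is a run of letters and not a measured site.

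The libraries held 3731 cells in NS, 3519 in SD and 3713 in RS, with 4446038, 3442191 and 4875693 UMIs in all. The median cell had 919, 744 and 1014 UMIs and 500, 405 and 532 genes, so SD was the shallowest. Pairs of the 3 libraries shared 18 to 22 cell barcodes. The mitochondrial share of UMIs was 8.58%, 9.64% and 12.3%, and the hemoglobin share 6.79%, 3.22% and 4.83%. The RS library stood apart in genes of the choroid plexus, the tissue that secretes cerebrospinal fluid, whose 11-gene list stood at 266, 149.6 and 28534 counts per 1000000 UMIs (CPM) in NS, SD and RS. Ttr, which encodes the transthyretin that this epithelium exports, made up 0.0119%, 0.00110% and 2.67% of all UMIs, and Enpp2, which encodes autotaxin, stood at 33.5, 18.9 and 1363 CPM. At the level of cells, 79.6% of RS cells held at least 1 Ttr UMI against 3.05% in NS and 1.08% in SD. In RS, Ttr was 0.118% to 0.293% of the UMIs of each of the 10 types compared, whereas in NS and SD no type exceeded 0.00676%. RNA of this other source was thus spread over all RS types, and its part in any difference between RS and SD was not tested.

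Genes that mark position along the neural axis separated the brainstem from the other regions and also differed among its 3 libraries. A list of 14 Hox genes, which are expressed from the hindbrain backward, had 143 UMIs in NS, 26 in SD and 202 in RS, and 0 to 3 in each of the 6 other libraries. A list of 12 forebrain genes had 5, 10 and 17 UMIs in the brainstem libraries against 341 to 1176 in the others. The labelled region therefore held by its markers in all 3 libraries. As CPM the Hox list stood at 32.2 in NS, 7.55 in SD and 41.4 in RS, and with 1 library each the part of the brainstem sampled cannot be told apart from the treatment. Within types, the Hox level was 66.7, 48.1 and 293 CPM in neurons, 101.5, 0 and 45.8 CPM in ependymal cells and 40.5, 5.30 and 78.0 CPM in astrocytes.

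**Figure D1:**
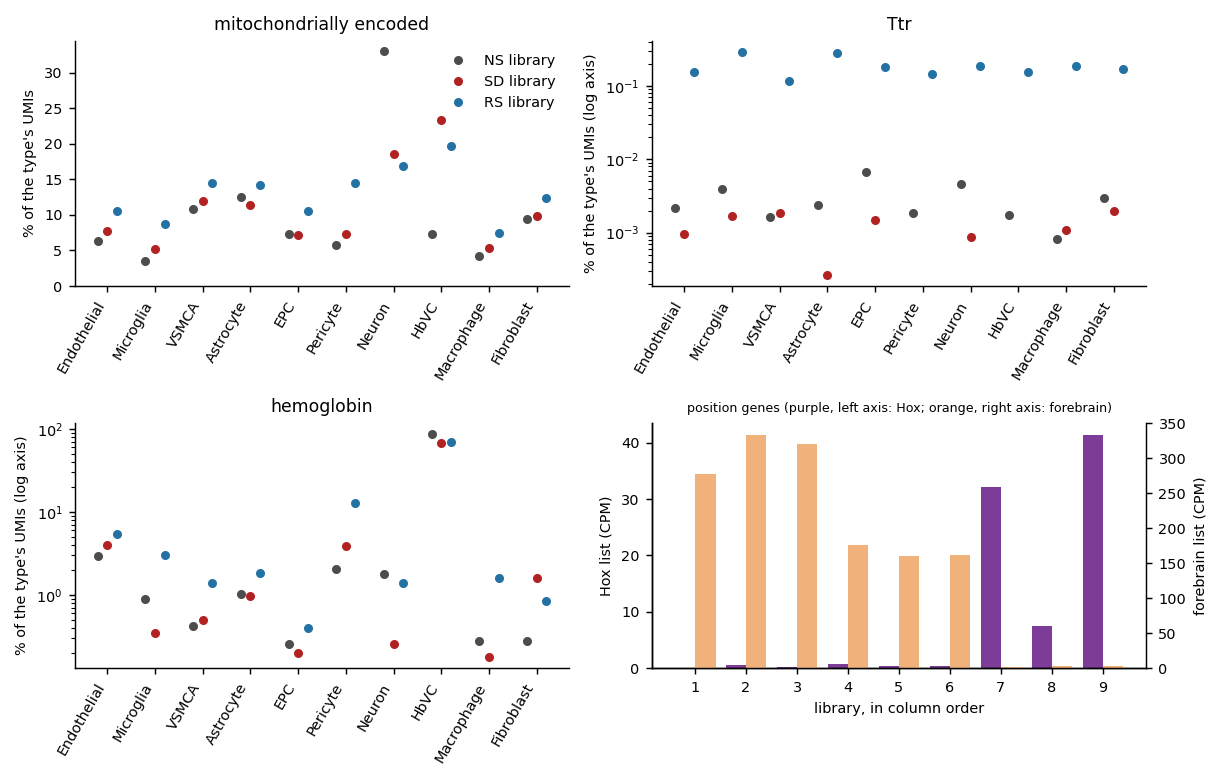
RNA of other sources and of position in the brainstem libraries: Ttr as a percent of the UMIs of each type on a log axis (types at 0 are not drawn), and the UMIs of the 14 Hox and 12 forebrain genes in all 9 libraries. Ttr was at or above 0.118% in each RS type and at or below 0.00676% in each NS and SD type.

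Cells were clustered together over the 3 libraries and named from fixed markers. The NS barcode list above also names cell types, and 1795 of its 1999 cells (89.8%) fell in a cluster of the same name. The match was poor for some types. Of the cells listed as HbVC, 3 fell in the cluster of that name and 13 in endothelial clusters, so HbVC below are the cells led by hemoglobin genes and Alas2 and mostly not the listed ones. Of those listed as pericytes, 117 fell in the pericyte and 46 in the fibroblast cluster, and of those listed as oligodendrocytes 37 had no name. The names astrocyte, ependymal cell (EPC), endothelial cell, arterial smooth muscle cell (VSMCA), pericyte, microglia, macrophage, fibroblast or leptomeningeal cell, neuron and hemoglobin-rich vascular cell (HbVC) stand for clusters that are like those types. The larger of the 2 VSMCA clusters, with 236, 253 and 311 cells, had 9 VSMCA markers and also 5 of pericytes. These 10 had at least 50 cells in each library.

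Ependymal cells took a growing part of the libraries, with 4.64% of NS cells (3.98% to 5.36%, exact binomial interval), 8.10% of SD cells (7.22% to 9.05%) and 17.3% of RS cells (16.1% to 18.6%). Astrocytes were 9.03% of NS (8.13% to 10.0%), 14.4% of SD (13.3% to 15.6%) and 13.2% of RS cells (12.2% to 14.4%). Microglia, the resident macrophages of the brain, went the other way, from 25.8% (24.4% to 27.2%) through 19.4% (18.1% to 20.8%) to 10.8% (9.79% to 11.8%). Endothelial cells likewise stood at 24.98%, 21.4% and 15.7%, each interval clear of the next. Arterial smooth muscle cells were 10.9%, 11.8% and 11.9% and neurons 4.77%, 4.92% and 3.77%, within overlapping intervals in each group. HbVC were 3.22%, 1.90% and 3.99%, macrophages 2.68%, 2.98% and 3.99%, and fibroblasts 2.12%, 2.42% and 4.12%. These shares depended on the depth of the cells counted. In cells of at least 1000 UMIs, ependymal cells were 8.97%, 23.4% and 26.8%, astrocytes 5.36%, 6.39% and 9.53%, with the NS and SD intervals overlapping and RS highest, and microglia 17.8%, 5.61% and 6.15%. Arterial smooth muscle cells were then 19.3%, 17.4% and 8.07% (6.89% to 9.38%), with RS clear of the others, and neurons 3.43% (2.61% to 4.42%) in NS and 6.49% (5.06% to 8.16%) in SD. The shares add to 100 in a library, so more of one type leaves less for the rest, and dissection, dissociation and droplet capture set them together with the tissue.

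Pericytes, the contractile cells of capillary walls, were 6.00% of NS and SD cells and 1.91% of RS cells. The size and direction of that difference depended on the cells counted and on how mixed clusters were treated. In cells of at least 1000 UMIs pericytes were 0.723%, 0.387% and 0.833%, so RS was highest, within overlapping intervals. A cluster with pericyte genes and at least 5 markers of another class was left without a name, and it held 77, 123 and 181 cells in NS, SD and RS. With such clusters kept in their class, pericytes were 8.07% (7.21% to 8.99%), 9.49% (8.54% to 10.5%) and 6.79% (6.00% to 7.64%). RS was then still lower than SD, while the NS and RS intervals overlapped. Cells in clusters with no name were 4.64%, 5.80% and 10.7% of the libraries.

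**Figure D2:**
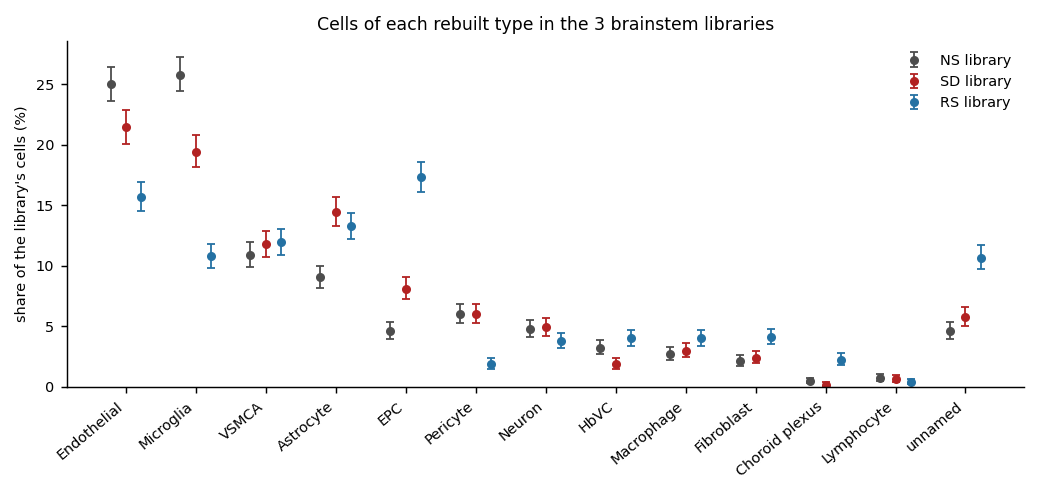
Share of cells of each type in NS, SD and RS, in percent of the cells of the library with exact 95% binomial intervals (counting error only). Ependymal cells were highest in RS at 17.3% and microglia lowest at 10.8%.

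Within a type, the UMIs of its cells were added up in each library, expressed as CPM, and compared as the ratio of CPM + 10 on the log2 scale, over genes with a mean of at least 50 CPM and 30 UMIs in all. A difference past 1.5-fold is given as such, since the design has no test. The share of tested genes past it is the background against which the counts of any gene group have to be read. In endothelial cells (2800 genes tested) 1.71% were over 1.5-fold higher and 3.68% lower in SD than in NS, and 2.11% and 5.11% in RS than in SD. In microglia (2358 genes) these shares were 2.63% and 5.0%, then 2.88% and 12.6%. In arterial smooth muscle cells (2212 genes) 3.75% were higher and 6.96% lower in SD, then 3.84% and 6.33% in RS. In ependymal cells (3119 genes) they were 5.48% and 6.44%, then 3.27% and 4.23%. In astrocytes (2682 genes) they were 5.82% and 8.76%, then 10.8% and 10.5%.

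In fibroblasts (1929 genes) the shares were 13.4% higher and 18.9% lower in SD than in NS, then 12.7% and 12.4% in RS against SD. In macrophages (1421 genes) they were 12.5% and 17.0%, then 12.5% and 15.0%. In pericytes (1546 genes) they were 4.98% and 19.0%, then 8.93% and 28.8%, in neurons (3277 genes) 32.2% and 7.84%, then 12.9% and 17.3%, and in HbVC (228 genes) 47.4% and 8.77%, then 19.3% and 11.0%. The median of all tested genes was itself away from 0 in some of these. It stood at 0.30 in neurons and 0.52 in HbVC for SD against NS, at −0.15 and −0.27 in pericytes for the first and second comparison, and at −0.13 in microglia for RS against SD, while it lay within 0.07 of 0 in the rest. Values in those types are read against these shifts.

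**Figure D3:**
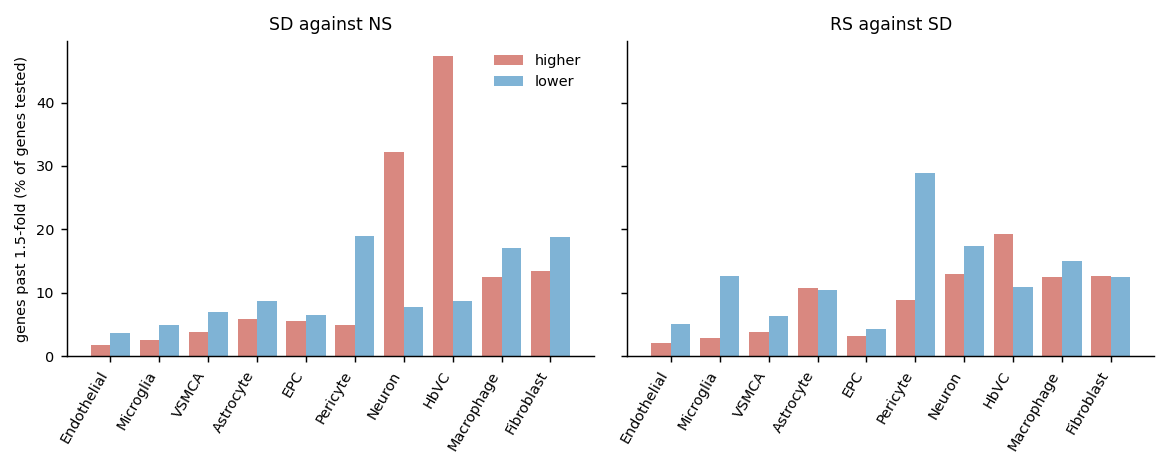
Percent of tested genes over 1.5-fold higher or lower in each type, for SD against NS and RS against SD. For SD against NS, the higher shares ran from 1.71% in endothelial cells to 47.4% in HbVC, and for RS against SD the lower shares ran from 4.23% in ependymal cells to 28.8% in pericytes.

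Metallothionein RNA was higher in SD than in NS in the glial types that hold most of it. Mt1 stood at 11159 CPM in NS, 18054 in SD and 12340 in RS in ependymal cells, a ratio of 1.62 for SD over NS (1.56 to 1.67) and of 0.683 for RS over SD (0.667 to 0.701). Astrocytes had 8042, 12338 and 9594 CPM, with ratios of 1.53 (1.46 to 1.61) and 0.778 (0.747 to 0.809). In both types the RS level thus lay between the NS and SD levels, nearer to NS. Mt2 in astrocytes followed with 2228, 3649 and 2953 CPM, a ratio of 1.64 (1.49 to 1.80) in SD, whereas in ependymal cells it was 3186, 3543 and 3200 CPM, a ratio of 1.11 (1.04 to 1.19). Mt3, a family member found mostly in brain, was 1.32 (1.21 to 1.44) and 1.29 (1.24 to 1.34) times its NS level in these types.

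Over all 10 types, Mt1 was higher in SD than in NS in every one, and past 1.5-fold in 6. Arterial smooth muscle cells had 281, 751 and 566 CPM of it, a ratio of 2.67 (2.2 to 3.26), and microglia 544, 853 and 889 CPM, a ratio of 1.57 (1.37 to 1.79). The levels in these types are small beside those of ependymal cells, whose RNA can reach other droplets. As an estimate of that free RNA, the lowest CPM of each gene over the 10 types was subtracted in each library. With it subtracted, the log2 difference of Mt1 stayed at 0.60 in astrocytes, 0.68 in ependymal cells and 1.24 in arterial smooth muscle cells. It became 0.34 in macrophages, 0.25 in microglia and 0.11 in pericytes, and lay below 0 in endothelial cells (−0.047), neurons (−0.16) and fibroblasts (−0.28). HbVC had the lowest Mt1 in each library, so their value of 0 was fixed by the estimate. The hemoglobin share of HbVC UMIs was 86.6%, 67.9% and 70.4% in NS, SD and RS. Its part in the amount subtracted was not tested. Mt1 in endothelial cells was 1279, 1468 and 1430 CPM before that step.

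Glucocorticoid-responsive genes were read next, with Tsc22d3 first. Tsc22d3 encodes GILZ, a leucine zipper protein induced by glucocorticoids, and in ependymal cells it stood at 392, 1114 and 560 CPM in NS, SD and RS. The ratio was 2.84 (2.40 to 3.38) in SD and 0.502 (0.451 to 0.560) in RS. In astrocytes it was 630, 893 and 544 CPM, with ratios of 1.42 (1.18 to 1.70) and 0.609 (0.518 to 0.716), and in microglia 543, 664.5 and 504 CPM. Endothelial cells had no such peak, at 976, 853 and 814 CPM. Of 9 types with the gene tested, 6 were above NS in SD and 8 below SD in RS. With free RNA subtracted, the values for SD against NS were 1.46 in ependymal cells and 0.42 in astrocytes on the log2 scale, and in pericytes the value turned from 0.16 to −0.040, which leaves 5 of 9 types above NS.

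The counts over the 14-gene glucocorticoid list include Tsc22d3. In ependymal cells 1 of 4 tested members was past 1.5-fold higher in SD, which was Tsc22d3 itself. In astrocytes 1 of 5 was higher, which was Cdkn1a, and 1 lower, which was Klf9, and in microglia 2 of 5 were higher. Over all genes 5.48% were higher in ependymal cells, 5.82% in astrocytes and 2.63% in microglia, and 8.76% were lower in astrocytes. No difference between types was tested. The 2 in microglia were Ddit4, an inhibitor of mTOR signalling, with 70.8, 229 and 81.8 CPM, and Fkbp5, a co-chaperone of the glucocorticoid receptor, with 69.7, 130 and 76.5 CPM. Ddit4 had a ratio of 3.23 (2.35 to 4.48) in SD, but in cells of at least 1000 UMIs its log2 difference was −0.24, the opposite direction. Cdkn1a, a cell cycle inhibitor, was 189, 340 and 237 CPM in endothelial cells, a ratio of 1.80 (1.48 to 2.21).

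Glul, which encodes glutamine synthetase, was likewise highest in SD in astrocytes and ependymal cells. It stood at 1850, 3013 and 1703 CPM in astrocytes, with ratios of 1.63 (1.47 to 1.81) in SD and 0.565 (0.517 to 0.618) in RS, and at 174, 374 and 227 CPM in ependymal cells, with ratios of 2.16 (1.66 to 2.83) and 0.608 (0.507 to 0.729). Macrophages also had it higher in SD, at 311, 645 and 481 CPM, with a ratio of 2.07 (1.36 to 3.20). Over the 10 types it was above NS in 6 and past 1.5-fold higher in 4, and the endothelial ratio was 0.820. Of the 15 genes of astrocyte transport, 14 were tested in astrocytes, of which 1 was past 1.5-fold higher and none lower in SD. In RS 1 was higher and 3 lower, with a median of −0.37. Over all astrocyte genes 5.82% were higher and 8.76% lower in SD, then 10.8% and 10.5% in RS. Of 10 secreted genes of astrocytes, 1 was higher and 1 lower in SD, then 2 higher and 2 lower in RS, with a median of −0.42. Agt, of the latter list, which encodes angiotensinogen, had 2161, 2573 and 1252 CPM and a ratio of 0.487 (0.440 to 0.538) in RS. Slc6a11, a GABA transporter, had 1894, 1980 and 1254 CPM and a ratio of 0.633 (0.569 to 0.705), and Gjb6, a gap junction connexin, 715, 832 and 486 CPM and 0.584 (0.492 to 0.692). Apoe, the main lipid carrier of the brain, was 20190, 21526 and 14682 CPM in astrocytes, so its RS ratio was 0.682 (0.661 to 0.704). Astrocytes came from 3 clusters, and the one led by Slc6a11, Agt and Slc1a2 held 162, 209 and 143 of the 337, 508 and 492 astrocytes. With the clusters weighted alike in each library, an alternative added after seeing the data, the RS medians of the transport and secreted genes were −0.20 and −0.25, and Glul was −0.70 instead of −0.82.

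Among the genes of the circadian clock and its output, Dbp and Per3 were lower in SD in each type tested, and several other members were not. Tef and Hlf, of the same factor family as Dbp, were above NS in 3 of 7 and 3 of 6 types. Dbp encodes a transcription factor driven by the circadian clock that binds the D-box. It was lower in SD than in NS in 9 of 9 types and past 1.5-fold lower in 7. In astrocytes it stood at 482, 162 and 154 CPM, a ratio of 0.335 (0.244 to 0.456), in pericytes at 665, 265 and 150 CPM, a ratio of 0.399 (0.262 to 0.595), and in endothelial cells at 253, 123 and 95.2 CPM, a ratio of 0.486 (0.372 to 0.629). Arterial smooth muscle cells had 392, 233 and 233 CPM and ependymal cells 415, 324 and 230 CPM. RS did not return to the NS level in any of these 5 types, although all tissue was taken at the same zeitgeber time. Ependymal cells and neurons did not reach 1.5-fold, at log2 differences of −0.35 and −0.14. With free RNA subtracted the value in neurons was 0.019, the opposite direction.

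Per3, with the D-boxes shown above, was lower in SD in 8 of 8 types, past 1.5-fold in 3. In astrocytes it stood at 357, 254 and 232 CPM (0.712, 0.534 to 0.947 in SD), in endothelial cells at 171, 105 and 148 CPM (0.618, 0.458 to 0.825) and in ependymal cells at 232, 160 and 128 CPM (0.688, 0.515 to 0.917). Over the 19-gene clock list, 3 of 11 tested members were past 1.5-fold lower in SD in astrocytes, 3 of 8 in endothelial cells and 5 of 7 in fibroblasts. In fibroblasts 1 was higher. Over all genes 8.76% were lower in astrocytes, 3.68% in endothelial cells and 18.9% in fibroblasts, where 13.4% were higher. In neurons 4 of 8 were higher and none lower, where 32.2% of all genes were higher. Nr1d2, a repressor of the clock loop, had 41.0, 127 and 106 CPM there, a ratio of 3.09 (1.38 to 7.82) from 8 NS UMIs, against a median shift of 0.30 over all neuron genes.

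Rbm3, an RNA-binding protein induced by mild cooling, was lower in SD in 8 of 9 types and higher in RS than in SD in 8 of 9. In ependymal cells it stood at 271, 99.8 and 198 CPM, with ratios of 0.369 (0.266 to 0.507) and 1.98 (1.49 to 2.68), and in microglia at 231, 109 and 190 CPM, with ratios of 0.471 (0.340 to 0.643) and 1.74 (1.20 to 2.55). Fibroblasts were the type with a higher SD level, and macrophages the type with a lower RS level. Cirbp, the other gene of this list, was lower in SD in 6 of 9 types and past 1.5-fold in 3. With free RNA subtracted, Rbm3 lay at 0.13 in neurons for SD against NS, so the direction there turned, and at −0.14 in endothelial cells for RS against SD.

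Of the chaperones, which help proteins fold, some were higher in RS than in SD and most were within 1.5-fold. Dnaja1, a co-chaperone of HSP70, was higher in 9 of 9 types and past 1.5-fold in 7. It stood at 131, 114 and 232 CPM in astrocytes, a ratio of 2.04 (1.43 to 2.96), at 365, 288 and 500 CPM in ependymal cells, a ratio of 1.74 (1.46 to 2.07), and at 221, 132 and 244 CPM in arterial smooth muscle cells, a ratio of 1.86 (1.33 to 2.61). Hsp90aa1 and Hspe1 were also higher in RS in 9 of 9 types, each past 1.5-fold in 4. Of the 22-gene list, 7 of 20 tested members were past 1.5-fold higher and none lower in ependymal cells, 4 of 15 and none in astrocytes, and 4 of 19 and 1 in microglia. The medians of the tested members were 0.31, 0.31 and 0.34. Over all genes 3.27% were higher in RS in ependymal cells, 10.8% in astrocytes and 2.88% in microglia. The lower shares over all genes were 4.23%, 10.5% and 12.6%.

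For SD against NS, the counts of this list past 1.5-fold were 5 of 20 lower in ependymal cells, 6 of 19 lower and 1 higher in microglia, and 6 of 14 lower and 1 higher in pericytes, with the rest within it. The median of the tested members was −0.23, −0.37 and −0.56 in these types. Over all genes 6.44% were lower in ependymal cells, 5.0% in microglia and 19.0% in pericytes, where the median of all genes was −0.15. Of all genes, 2.63% were higher in microglia and 4.98% in pericytes. Hsp90aa1 was above NS in 5 of 9 types, and stood at 501, 770.4 and 1084 CPM in the whole libraries. Hspa5, the chaperone of the endoplasmic reticulum, had 433, 223 and 429 CPM in ependymal cells, with ratios of 0.515 (0.410 to 0.645) and 1.93 (1.59 to 2.35). Manf, a secreted protein of the same compartment, had 192, 101 and 195 CPM there, with ratios of 0.529 (0.375 to 0.744) and 1.92 (1.45 to 2.59). Hspa1a, an inducible HSP70, had 244, 34.2 and 79.2 CPM in microglia and 97.0, 9.98 and 79.8 CPM in ependymal cells. Its ependymal ratios were 0.103 (0.0358 to 0.243) and 7.99 (3.54 to 22.3).

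**Figure D4:**
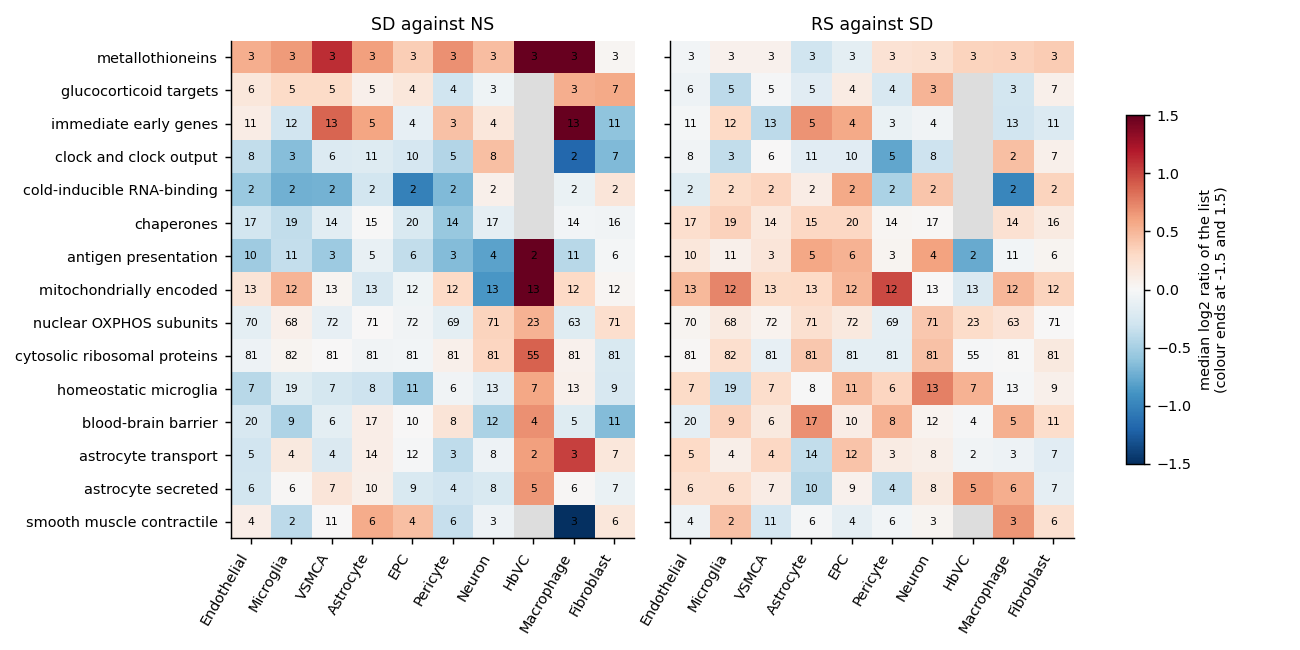
Median log2 difference of each fixed gene list in each type, for SD against NS and RS against SD, with the number of list genes tested in each cell. Grey marks fewer than 2 genes tested, and the colour scale ends at 1.5. Metallothioneins were above 0 in all 10 types in SD.

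Immediate early genes, which are transcribed within minutes of a stimulus, differed by type. In arterial smooth muscle cells 8 of 13 tested members were past 1.5-fold higher and none lower in SD, with a median of 0.87, and 5 of 13 were lower and none higher in RS. Egr1 stood at 60.2, 195 and 63.9 CPM there, with ratios of 3.24 (2.14 to 5) and 0.328 (0.205 to 0.508), and Junb at 369, 902 and 420 CPM, with ratios of 2.45 (2.06 to 2.92) and 0.466 (0.388 to 0.556). Fos had 422, 1033 and 741 CPM and a ratio of 2.45 (2.09 to 2.89), and Atf3, a stress-induced factor, 45.6, 136 and 25.1 CPM. Of 11 contractile genes tested in these cells, none was past 1.5-fold in SD and 1 was lower in RS, near the shares over all genes. Those shares were 3.75% higher and 6.96% lower in SD, then 3.84% and 6.33% in RS. Acta2, smooth muscle actin, stood at 7042, 7075 and 5924 CPM.

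In macrophages 11 of 13 tested immediate early genes were past 1.5-fold higher in SD, with a median of 1.56, and 3 of 13 were lower in RS. Over all macrophage genes 12.5% were higher in SD and 15.0% lower in RS. Fos stood at 123, 1065 and 761 CPM, a ratio of 8.66 (5.01 to 16.1) from 15 and 99 UMIs, and Dusp1, a phosphatase that ends kinase signals, at 164, 914 and 650 CPM. In astrocytes 3 of 5 were past 1.5-fold higher in SD and none lower, with a median of 0.60, in fibroblasts 6 of 11 lower, in microglia 2 of 12 lower, and in endothelial cells 1 was higher and 1 lower of 11. Over all genes in SD, 5.82% were higher in astrocytes, 18.9% lower in fibroblasts and 5.0% lower in microglia. In endothelial cells 1.71% were higher and 3.68% lower. Immediate early genes also respond to dissociation of tissue, and no library was made without it.

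Of the 15-gene antigen presentation list, 3 of 10 tested members were past 1.5-fold lower in SD in endothelial cells (3.68% of all genes), 3 of 11 in microglia (5.0%), 5 of 11 in macrophages (17.0%) and 2 of 6 in ependymal cells (6.44%). The counts were 2 of 5 in astrocytes (8.76%), 1 of 6 in fibroblasts (18.9%), 3 of 4 in neurons (7.84%) and 3 of 3 in pericytes (19.0%). None was higher in these 8 types, and the fibroblast count was not above the share of all genes. In HbVC 2 of 2 were higher (47.4% of all genes). In arterial smooth muscle cells 1 of 3 was higher (3.75%) and 1 lower (6.96%). H2-D1, a class I major histocompatibility chain, was below NS in 9 of 9 types and past 1.5-fold lower in 7. It stood at 1194, 772 and 781 CPM in endothelial cells, a ratio of 0.646 (0.580 to 0.719), and at 953, 673 and 720 CPM in microglia, a ratio of 0.707 (0.619 to 0.805). RS did not return to NS in either type, although in ependymal cells (92.4, 51.6 and 91.6 CPM) and astrocytes (155, 95.4 and 154 CPM) it did. With free RNA subtracted, the log2 differences for SD against NS and RS against SD went from −0.73 and 0.72 to −2.67 and 2.30 in ependymal cells, and from −0.77 to −1.45 for the first in arterial smooth muscle cells. H2-K1 was past 1.5-fold lower in 4 of 7 types. Cd74, the invariant chain of class II molecules, stood at 553, 175 and 412 CPM in microglia, with ratios of 0.317 (0.248 to 0.401) and 2.35 (1.79 to 3.11), and H2-Ab1, a class II chain, followed at 127, 44.9 and 84.4 CPM. Macrophages hold far more Cd74, at 26115, 20871 and 19610 CPM, and were 2.68%, 2.98% and 3.99% of cells. Of the interferon-induced list none of 12 tested members was past 1.5-fold in endothelial cells in SD, and none of 5 in microglia.

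Microglia came from 3 clusters whose balance differed between libraries. The cluster led by P2ry12, Tmem119 and Cx3cr1 held 691, 253 and 130 cells, one led by Ctss and C1qc held 171, 373 and 194, and one led by the chemokines Ccl4 and Ccl3 held 100, 57 and 76. P2ry12, the purine receptor of resting microglia, stood at 2441, 1566 and 1087 CPM over the class, with ratios of 0.642 (0.589 to 0.698) and 0.694 (0.614 to 0.784). Cx3cr1, the fractalkine receptor, had 2571, 2421 and 1813 CPM. Of the 19 homeostatic microglia genes, 1 was past 1.5-fold lower in SD and 3 in RS, with medians of −0.18 and −0.35, and none was higher. Over all genes 5.0% were lower in SD and 12.6% in RS, with medians of −0.034 and −0.13, so the counts lie near those shares. Median depth of the cells was 798, 605 and 863 UMIs.

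Apoe and Spp1 parted in microglia after recovery. Apoe stood at 2330, 1816 and 4035 CPM, a ratio of 2.22 (2.04 to 2.42) in RS, while in astrocytes it was lower in RS (above). Spp1, osteopontin, stood at 217, 242 and 29.0 CPM, a ratio of 0.120 (0.0583 to 0.223). In macrophages Spp1 had 57.3, 398 and 58.5 CPM. Ccl4 was 1049, 1038 and 1752 CPM in microglia, a ratio of 1.69 (1.5 to 1.9) in RS, where Luc7l2 was lower at 262, 293 and 121 CPM. Mitochondrially encoded genes were higher in microglia in both comparisons, 5 of 12 and then 10 of 12 past 1.5-fold, and the mitochondrial share of their UMIs was 3.48%, 5.23% and 8.69%. Over all microglial genes 2.63% and then 2.88% were higher.

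The endothelium had 151 genes past 1.5-fold for SD against NS and 202 for RS against SD. In endothelial cells of at least 1000 UMIs these counts were 410 and 405. Endothelial cells held 1007395, 625986 and 629979 UMIs in NS, SD and RS, against 99448, 101046 and 202049 in fibroblasts. The part of these totals in the endothelial counts was not tested. Of the 20 genes of the blood-brain barrier, none was past 1.5-fold higher in endothelial cells and 2 were lower in SD, and 1 was lower in RS. Over all genes 1.71% were higher and 3.68% lower in SD, and 5.11% were lower in RS. The endothelial cluster led by Gkn3 and Ly6c1 held 618, 581 and 442 cells in NS, SD and RS. The cluster led by Slc7a1 and Vwf held 314, 173 and 140. Slc2a1, the GLUT1 glucose transporter, stood at 1655, 1780 and 1121 CPM, with ratios of 1.07 (0.996 to 1.16) and 0.630 (0.572 to 0.693). Bsg, a partner of lactate transporters, had 10677, 7794 and 6176 CPM, and Cldn5, the main claudin of the barrier, 1557, 1609 and 1364 CPM. Among the genes named by their size of change, Cd59a, an inhibitor of complement, had 400, 736 and 381 CPM, with ratios of 1.84 (1.61 to 2.11) and 0.517 (0.441 to 0.606). Ptn, the growth factor pleiotrophin, had 2717, 1736 and 3232 CPM and was past 1.5-fold higher in RS in 6 of 10 types, including microglia at 111, 91.9 and 224 CPM. Tyrobp, a microglial adaptor with 121, 60.7 and 141 CPM here, Ccnd2 and Cldnd1 were also named, as were Exosc2 (122, 216 and 34.9 CPM), H1f0, Gimap6, Fos and Mt3. Mt3 had 50.6, 133 and 148 CPM, but its log2 difference for SD against NS turned from 1.23 to −0.097 with free RNA subtracted.

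In astrocytes, the genes highest in SD by size were Tagln, a smooth muscle marker, at 87.6, 219.9 and 168 CPM with a ratio of 2.51 (1.60 to 4.06), Vps8 (below) and Pcbp2, at 91.0, 219.9 and 249.6 CPM. Tagln was at log2 1.46 instead of 1.24 with free RNA subtracted, and without called doublets it was at 1.66. Fabp7, a fatty acid binding protein, had 239, 84.8 and 138 CPM, a ratio of 0.354 (0.226 to 0.545) in SD, and Fasn, fatty acid synthase, 165, 66.2 and 89.7 CPM, a ratio of 0.401 (0.237 to 0.662). In RS, Pola2, a subunit of DNA polymerase alpha, was lowest with 229, 352 and 50.7 CPM, and Kcnt1 and Loxl2 were the next, at ratios of 0.179 and 0.207. Slc6a6, the taurine transporter, was higher in RS with 91.0, 55.6 and 189 CPM, as were Mia and Itm2a. Blood-brain barrier genes were higher in RS astrocytes for 10 of 17 tested, with a median of 0.69, and 1 astrocyte cluster with 3 endothelial markers held 15, 21 and 79 cells in NS, SD and RS. Ribosomal protein genes were past 1.5-fold higher in RS for 20 of 81. Over all astrocyte genes 10.8% were higher in RS.

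Among ependymal cells, none of 14 cilia genes was past 1.5-fold in either comparison. Over all genes 5.48% were higher and 6.44% lower in SD, then 3.27% and 4.23% in RS, so the count lies near those shares. Foxj1, the master factor of motile cilia, stood at 401, 411 and 338 CPM. Cd36, a fatty acid receptor, had 72.2, 231 and 197 CPM, a ratio of 3.20 (2.17 to 4.87) in SD, and Rpn2, part of the oligosaccharyltransferase, 106, 318 and 169 CPM, a ratio of 3.00 (2.17 to 4.22). Pcp4 and Tpm4 were lower in SD, at ratios of 0.421 (0.305 to 0.575) and 0.416 (0.275 to 0.621). Sncg, gamma-synuclein, was higher in RS with 56.4, 46.6 and 234 CPM, a ratio of 5.03 (3.40 to 7.71), as were Pla2g7 at 3.17 (2.34 to 4.39) and Gpm6a at 2.38 (1.68 to 3.46). Tapbpl, Snf8 and Csrp2 were lower in RS, at 0.181, 0.391 and 0.463. The Hox level of ependymal cells given above, 0 in SD, also differed between the libraries, and its part in these values was not tested.

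Neurons came from 2 clusters that the libraries filled differently, with 142, 85 and 50 cells in one led by Scg2 and Syt2 and 36, 88 and 90 in one led by Meg3, Snhg11 and Sncb. With the clusters weighted alike in each library, the neuron genes past 1.5-fold for SD against NS were 757 instead of 1313. The mitochondrial share of neurons was 33.0%, 18.5% and 16.8%. In SD 13 of 13 mitochondrially encoded genes were past 1.5-fold lower, against 7.84% of all neuron genes. Tcf7l2 stood at 82.1, 840 and 312 CPM, a ratio of 10.2 (6.14 to 18.3), Cartpt, a neuropeptide, at 1667, 21.9 and 9.61 CPM, and Ebf1 at 164, 21.9 and 317 CPM. Sln was highest in RS with 20.5, 43.7 and 596 CPM, and Slc5a7, the choline transporter of cholinergic neurons, stood at 138, 35.0 and 144 CPM. C1ql1 and Ppm1l were lower in RS, Pkib higher, and Vat1l and Zfhx3 higher in SD. Snap25, common to most neurons, was 1298, 1207 and 1365 CPM. Slc32a1, the vesicular GABA transporter, was 344, 166 and 144 CPM and Slc17a6, a vesicular glutamate transporter, 298, 363 and 269 CPM, so the mix of neurons moved with the treatment and cannot be told apart from it. Of 13 synaptic vesicle genes tested, 3 were past 1.5-fold higher in SD and 3 lower in RS. Over all neuron genes 32.2% were higher in SD and 17.3% lower in RS, so the counts lie below or near those shares.

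Vps8, a vesicle tethering subunit, was named in both neurons and astrocytes. It stood at 831, 2873 and 759 CPM in neurons, with ratios of 3.46 (2.91 to 4.13) and 0.264 (0.221 to 0.315), and at 101, 244 and 58.5 CPM in astrocytes, with ratios of 2.41 (1.58 to 3.77) and 0.240 (0.153 to 0.366). Both types thus had it highest in SD.

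Pericytes held 159455, 124342 and 66553 UMIs, so few genes were well counted. Vtn, vitronectin, stood at 7664, 5919 and 3997 CPM and Rgs5, a regulator of G protein signalling, at 5513, 5163 and 4132 CPM. Of 10 pericyte genes, 1 was past 1.5-fold lower in SD and 3 in RS, with medians of −0.18 and −0.55 beside −0.15 and −0.27 over all genes. The shares of all genes past it were 19.0% lower in SD and 28.8% in RS, so the counts lie below or near them. Saa1, an acute phase protein, had 125, 290 and 45.1 CPM from 20, 36 and 3 UMIs, and Cspg4 (NG2) had 43, 21 and 2 UMIs. Anapc13, Top1, Atp2c1, Ddx3x, Ckb and Krtcap2 were also named. In arterial smooth muscle cells Polr2m, Tbx3os1 and Sept4 were lower in SD at ratios of 0.481 to 0.512, and Ptprb, an endothelial phosphatase, was lower in RS at 0.408.

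A few cells of the NS macrophage class held genes typical of neutrophils, the granulocytes of blood. S100a8 had 352, 8 and 4 UMIs in NS, SD and RS, S100a9 178, 1 and 0, and Retnlg 59, 0 and 0. The NS UMIs of S100a8 came from 4 of 100 cells, and those of S100a9 and Retnlg from 3 each, all of them cells under 1000 UMIs. The 58 NS macrophages of at least 1000 UMIs had 0 of each, against 7 of S100a8 and 1 of S100a9 in the 29 SD cells of that depth. The large class values, at log2 −4.91 and −6.14 for SD against NS for the first 2 genes, thus describe those few cells, and the values in deeper cells, 4.22 and 1.82, describe fewer UMIs still. Nnat was higher in SD macrophages and microglia, the latter with 64.0, 182 and 119 CPM, and Retnla, Plac8 and Spp1 lower in RS. Mt3 was the first by size in SD macrophages, with 3, 29 and 55 UMIs. The genes highest in RS against SD in macrophages were Rgs5, a pericyte marker, at 65.5, 75.3 and 279.6 CPM, Hspe1, and Ly6c1, an endothelial marker, at 197, 96.8 and 306 CPM. Rgs5 and Ly6c1 were at log2 2.72 and 4.40 instead of 1.76 and 1.56 with free RNA subtracted. Only 2 doublets were called in RS, so their part was not tested.

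In fibroblasts Cyp26b1, which degrades retinoic acid, had 0, 51 and 60 UMIs, at least 16.7-fold higher in SD than the floor of 3 NS counts. Ccl7, a chemokine, had 0, 4 and 64 UMIs, so it was not detected in NS and barely in SD. Tgfbi stood at 282, 49.5 and 257 CPM, Ly6a at 362, 69.3 and 178 and Nnat at 432, 1138 and 292 CPM. Cxcl16 was lower in SD, and Inmt was higher and Ociad1 and Csrp2 lower in RS. HbVC had 228 testable genes, since hemoglobin took 86.6% of their NS UMIs, and 13 of 13 mitochondrially encoded and 41 of 55 ribosomal genes were higher in SD, where hemoglobin took 67.9%. Over all HbVC genes 47.4% were higher in SD, with a median of 0.52. Rps27rt, Cox7c, Fam220a, Eif1, Gpx1, Ptgds, Ctss and Fech were named there, with Ptgds, prostaglandin D synthase, at 261, 170 and 597 CPM.

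Red cell RNA outside HbVC also moved. Of 4 tested genes of the erythroid list, all 4 were past 1.5-fold lower in SD in microglia and neurons and higher in fibroblasts and pericytes, and all 4 were higher in RS in astrocytes, ependymal cells, macrophages, microglia, neurons, pericytes and arterial smooth muscle cells. The shares over all genes of these types are those given above. The choroid plexus list has 11 genes, of which 1 to 4 could be tested in a type. Their medians were higher in RS than in SD in each of the 10 types, by log2 1.04 to 7.30. Both lists were chosen to read RNA of other sources, and what they add to other genes was not tested.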

How the data were processed

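Counts of UMIs per gene and cell were used as the authors deposited them, after alignment to GRCm38 with Cell Ranger 2.2.0 and work in R 3.5.3 per the submitters' processing notes; the annotation release is not given in the sources used here. The table holds 18634 genes and 29571 cells, whose column names give a library code and no sample label. Libraries 7, 8 and 9 were taken by column order, tested with the barcode list and the authors' share columns; the authors' fold changes and p-values were not used. Cells were scaled to 10000 UMIs, log-transformed and clustered over the 3 libraries (2000 variable genes, 13 components, 20 neighbours, resolution 1; Python 3.11.15, scanpy 1.11.5, leidenalg 0.10.2, scikit-learn 1.9.0). Clusters were named from at least 3 detected markers. A cluster with at least 5 markers of a second class stayed unnamed, except between arterial smooth muscle cells and pericytes, which share markers; the rule was added after the clusters were seen. In all, 4.64%, 5.80% and 10.7% of NS, SD and RS cells had no name. Scrublet, as scanpy runs it, marked 43, 65 and 2 cells, in RS 0.0539% of cells, so few that doublets there were taken as not found; they were kept in all libraries.

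UMIs were summed per type and library. Log2 differences use CPM + 10, while the printed ratios are of CPM alone. Intervals are exact Poisson, conditional binomial or Clopper-Pearson (scipy 1.17.1). Since PCR copies are collapsed by UMI and only counting error is covered, the intervals say nothing of animals. Genes outside the lists were named as the 3 highest and 3 lowest per type and comparison among genes past 1.5-fold with at least 100 CPM on average and 50 UMIs, leaving out mitochondrial, ribosomal, hemoglobin, choroid plexus, Gm and Rik genes and each type's 10 leading cluster genes. The ribosomal genes left out did not include Rps27rt. Members, lists and the rule were chosen with earlier results of these data known. Steps were tested on simulated data. Promoter sequences are from RefSeq, GRCm38.p6. Alternatives varied depth, filter, pseudocount, centring, doublets, resolution, free RNA and cluster weights.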

Additional observations from a re-analysis of the deposited data

Results flagged for a closer look

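Choroid plexus epithelium-like cells entered no comparison of types, since NS and SD held too few of them. They were 2.24% of RS cells (1.78% to 2.76%), or 83 cells with a median of 4374 UMIs, against 0.482% in NS (0.286% to 0.761%) and 0.171% in SD (0.0626% to 0.371%). Cells in clusters left without a name were 10.7% of RS cells (9.69% to 11.7%), against 4.64% in NS (3.98% to 5.36%) and 5.80% in SD (5.05% to 6.62%). One such cluster was led by the pericyte genes Abcc9 and Rgs5 with 77, 123 and 181 cells in NS, SD and RS. Another, led by Fut9 and Cd38 with 10 astrocyte markers, held 2, 13 and 71 cells. A cluster led by the endothelial gene Mmrn2 with 9 microglial markers held 22, 20 and 62 cells. The cause of these shares was not tested.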

How the results depend on the processing

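Beside the values in the report, up to 12 alternatives were computed for each result. Centring on the median gene, the mean over cells, a pseudocount of 1 CPM, and totals without mitochondrial, hemoglobin and choroid plexus genes left the count of genes past 1.5-fold within 1.5 times in all 20 comparisons. Where a value moved, the cause was not tested, other than that a stricter filter tests fewer genes and none tests more.

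With a mean of at least 200 CPM, the genes past 1.5-fold for SD against NS and for RS against SD were 39 and 110 in astrocytes (391 and 572 in the report's setting), 43 and 38 in EPC (372 and 234), 25 and 32 in endothelial cells (151 and 202), 141 and 92 in fibroblasts (623 and 485), 32 and 9 in HbVC (128 and 69), 112 and 92 in macrophages (420 and 390), 28 and 63 in microglia (180 and 365), 229 and 171 in neurons (1313 and 992), 73 and 159 in pericytes (370 and 584) and 25 and 35 in VSMCA (237 and 225). With no filter on CPM they were 1013 and 1136 in astrocytes, 1420 and 877 in EPC, 698 and 837 in endothelial cells, 699 and 1187 in microglia and 692 and 680 in VSMCA. In cells of at least 1000 UMIs they were 741 in astrocytes for SD against NS, 410 and 405 in endothelial cells, 85 in HbVC for SD against NS, 247 and 257 in macrophages, 689 and 737 in microglia and 394 and 409 in VSMCA, while pericytes had too few cells for a value. With free RNA subtracted HbVC had 30 and 17. With the clusters of a type weighted alike, an alternative added after seeing the data, neurons had 757 for SD against NS.

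In cells of at least 1000 UMIs, the shares in NS, SD and RS were 5.36%, 6.39% and 9.53% for astrocytes, 8.97%, 23.4% and 26.8% for EPC, 22.5%, 15.9% and 12.9% for endothelial cells, 2.65%, 3.97% and 5.57% for fibroblasts, 6.08%, 4.55% and 5.62% for HbVC, 17.8%, 5.61% and 6.15% for microglia, 0.723%, 0.387% and 0.833% for pericytes, 19.3%, 17.4% and 8.07% for VSMCA and 8.73%, 12.7% and 12.9% for unnamed clusters. They were 3.43% and 6.49% for neurons in NS and SD, 3.49% and 2.97% for macrophages in NS and RS, and 0 and 3.91% for choroid plexus epithelium in SD and RS. The order of EPC over the libraries kept its direction, SD microglia lay below RS microglia, and pericytes were highest in RS. The SD and RS intervals overlapped in each of these types, so the order of SD and RS lay within counting error. With mixed clusters kept in their class (added after seeing the data), pericytes were 8.07%, 9.49% and 6.79%, unnamed cells 1.93%, 1.36% and 2.21%, RS astrocytes 15.2% and RS microglia 12.4%. At resolution 0.5, macrophages were 3.40% of NS and 3.64% of SD, RS microglia 13.8%, and unnamed cells 3.73%, 4.77% and 7.68%. Without called doublets, unnamed cells were 3.88% of NS and 4.84% of SD.

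On the log2 scale, 9 values past 1.5-fold changed sign. In cells of at least 1000 UMIs, Ddit4 in microglia was −0.24 for SD against NS and 0.20 for RS against SD, Rps27rt in HbVC 0.30 for RS against SD, S100a8 and S100a9 in macrophages 4.22 and 1.82 for SD against NS (7 and 1 SD UMIs against 0 in NS), and the median of the astrocyte secreted genes in HbVC −0.0045 for SD against NS. The S100a8 and S100a9 values rest on too few UMIs to show a direction. With free RNA subtracted, Mt2 in VSMCA was −0.62 and Mt3 in endothelial cells −0.097 for SD against NS. With clusters weighted alike, the median of the immediate early genes in astrocytes was −0.12 for RS against SD. No paired analysis was possible because each group had 1 library. With 3 mice pooled in each library, no value here has an error over animals.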
